A study of Mus musculus with 2 samples.

Results

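The 10 antioxidant genes described here are Hmox1, Nqo1, Gclc, Gclm, Txnrd1, Srxn1, Slc7a11, Prdx1, Prdx6 and Sod2, of the kind switched on by the transcription factor NRF2. They were chosen by symbol, and all 10 were found among the 32285 genes listed in both count tables of a single-cell RNA sequencing study of mouse cornea and limbus, the rim that holds the corneal stem cells. One library came from mice labelled Pax6 heterozygous (Pax6 +/-), whose cells are called labelled-heterozygous below, and 1 from wild-type mice. The labels give no other allele or treatment, and no sex, age, strain or identity of the Pax6 allele. The series description names 2 mice per genotype, with 1 library for each; pooling is not stated. Lens, retina, iris and trabecular meshwork had been taken out and most conjunctiva removed before enzymatic digestion. Pax6 encodes a transcription factor needed to form the eye and to keep its surface epithelium corneal, and the pair of libraries sets cells labelled as carrying 1 mutant copy beside wild-type cells.

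NRF2 (gene Nfe2l2) is held low by KEAP1, which directs it to degradation. Oxidants and electrophiles modify KEAP1, NRF2 then enters the nucleus with a small MAF protein and binds antioxidant response elements, and BACH1 occupies the same elements and represses them. The targets include the cystine importer xCT (Slc7a11), the enzyme that makes the glutathione precursor (Gclc and Gclm), thioredoxin reductase (Txnrd1), sulfiredoxin (Srxn1), quinone reductase (Nqo1), haem oxygenase (Hmox1) and peroxiredoxins. The cornea meets light and air throughout life, which makes these enzymes of interest there. Slc7a11 is also a known target of ATF4, the transcription factor of the amino acid response, and Sod2, the mitochondrial superoxide dismutase, is best known as a target of NF-kB.

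Promoter sequence was at hand for 7 of the 10 genes, in 9 entries, and the stretches that hold a match to either element are shown because 4 genes held the first element and Slc7a11, the gene with the largest epithelial difference, held the second. The core of the antioxidant response element was searched as TGACNNNGC and an amino acid response element as TGATGNAA, on both strands, from 250 bases before to 50 after the start. The first was in 12.4% and the second in 3.97% of 32851 mouse promoters. Matches to the antioxidant core were in Gclm, Txnrd1, Prdx1 and Srxn1, all on the strand opposite to the gene, at positions -134 to -126, -92 to -84, -133 to -125 and 29 to 37 from the start in that order. Slc7a11 alone of the 7 held the amino acid type, with matches on opposite strands at -66 to -59 and -47 to -40. No match was found for Nqo1 or Sod2, which says only that these letters are not in the window. The sequences are from RefSeq on GRCm38.p6, 5′ to 3′ on the strand of the gene, and capitals mark the match. For Txnrd1 the match is in 1 of its 3 entries. For Srxn1 the match lies after the start, and only 25 bases around it are given. A match is a description of the letters and not a measured binding site.
Gclm chr3:122245307-122245556 (+): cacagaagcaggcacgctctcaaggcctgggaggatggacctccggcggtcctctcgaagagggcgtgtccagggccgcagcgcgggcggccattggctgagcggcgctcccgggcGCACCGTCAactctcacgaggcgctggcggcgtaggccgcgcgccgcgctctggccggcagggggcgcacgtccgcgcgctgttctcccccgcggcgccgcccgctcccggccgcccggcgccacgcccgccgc
Txnrd1 chr10:82858956-82859205 (+): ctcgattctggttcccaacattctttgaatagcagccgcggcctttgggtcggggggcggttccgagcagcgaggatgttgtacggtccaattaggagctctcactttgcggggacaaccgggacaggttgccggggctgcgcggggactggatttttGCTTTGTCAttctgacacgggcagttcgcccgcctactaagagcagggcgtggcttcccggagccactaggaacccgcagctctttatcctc
Prdx1 chr4:116685349-116685598 (+): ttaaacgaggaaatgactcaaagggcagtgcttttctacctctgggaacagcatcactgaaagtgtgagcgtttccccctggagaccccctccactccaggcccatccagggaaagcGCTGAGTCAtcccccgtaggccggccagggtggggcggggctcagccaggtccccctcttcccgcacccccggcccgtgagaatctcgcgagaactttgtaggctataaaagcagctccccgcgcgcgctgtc
Srxn1 chr2:152105544-152105568 (+): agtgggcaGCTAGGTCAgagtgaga
Slc7a11 chr3:50443614-50443863 (-): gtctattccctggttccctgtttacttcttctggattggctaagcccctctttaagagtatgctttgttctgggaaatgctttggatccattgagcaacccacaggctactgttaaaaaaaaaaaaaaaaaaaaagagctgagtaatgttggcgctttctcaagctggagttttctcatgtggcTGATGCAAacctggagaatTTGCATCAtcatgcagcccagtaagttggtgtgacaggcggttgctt

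The library labelled Pax6 heterozygous held 131567589 unique molecular identifiers (UMIs, counted RNA molecules) in 10574 barcodes, and the wild-type library held 124540296 in 11354. After barcodes under 500 genes, under 1000 UMIs or over 20% mitochondrial UMIs were dropped, 9542 labelled-heterozygous and 10154 wild-type cells remained, with median depths of 12537 UMIs in labelled-heterozygous and 10219 in wild-type cells, and 40 barcodes occurred in both libraries. Levels are CPM, the UMIs of a gene scaled to a fixed total (counts per 1000000), over all cells of a class in a library and leaving out genes encoded in mitochondria. There is no replicate, so no test was made, and each 95% interval covers counting error only. A gene is counted as higher or lower where it reached 20 CPM in either library and the ratio was at least 2 or at most 0.5. Pax6 itself stood at 743 CPM in epithelial cells of the library labelled Pax6 heterozygous and at 372 CPM in the wild-type library. It was higher, not lower, under the label of reduced dose. The allele is not stated, so these UMIs, counted over the whole gene, do not check the label, and every direction below is that of the labelled libraries. 

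Epithelial cells were those with Krt5, Krt14 and Krt15 at 30 or more per 10000 UMIs, 6796 cells in the library labelled heterozygous and 8552 in the wild-type library. The makeup of these cells differed, and each result over all epithelial cells rests on it. Cells with Krt12, the corneal keratin, at 20 or more per 10000 were 8.55% of epithelial cells in the library labelled heterozygous and 97.9% in the wild-type library. The Krt12-low cells were divided by Gpha2, a limbal marker, and Krt4, a conjunctival keratin, each at 2 per 10000. Gpha2-gated cells (Krt12-low, Gpha2-positive, Krt4-negative) numbered 2178 labelled-heterozygous and 110 wild-type, and Krt4-gated cells (Krt12-low, Krt4-positive, Gpha2-negative) numbered 2162 labelled-heterozygous and 25 wild-type. Within 2-fold of the limits lay 661 labelled-heterozygous and 3608 wild-type cells for the keratins, 117 labelled-heterozygous and 122 wild-type cells for Krt12, 1423 labelled-heterozygous and 801 wild-type cells for Gpha2, and 1483 labelled-heterozygous and 189 wild-type cells for Krt4. Krt12 UMIs were also present outside the epithelium, and reached 57.4 CPM in keratocytes of the library labelled heterozygous and 1041 CPM in those of the wild-type library. Gpha2 stood at 57.2 CPM in labelled-heterozygous and 372 CPM in wild-type keratocytes, and Krt4 at 8.68 CPM in labelled-heterozygous and 0.516 CPM in wild-type ones. The part of such UMIs in the gates was not tested. The summed level of 8 keratocyte markers was 612 CPM in labelled-heterozygous and 128 CPM in wild-type epithelial cells, and 106644 CPM in labelled-heterozygous and 71590 CPM in wild-type keratocytes.

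In epithelial cells as a whole, the library labelled heterozygous had more RNA of the cystine importer subunit Slc7a11, of Gclm, of thioredoxin reductase (Txnrd1) and of haem oxygenase (Hmox1). Of the 10 genes, 9 reached 20 CPM, 4 were counted as higher and 0 as lower. Among 7092 genes at that level, 13.2% were counted as higher and 6.44% as lower. The median log2 ratio of the 9 genes was 0.48, against 0.17 over all genes. Srxn1 was under the minimum in both libraries.

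Gclm, the modifier subunit of glutamate-cysteine ligase (ENSMUSG00000028124, plus strand of chromosome 3 on GRCm38, 122245557 to 122270732), was at 197 CPM in epithelial cells of the library labelled heterozygous and at 49.3 CPM in the wild-type library. The ratio was 4.0 (95% interval 3.88 to 4.12), and it was also above 2 within the Krt12-high and the Gpha2-gated class. In Krt12-high cells Gclm stood at 99.2 CPM in labelled-heterozygous and 48.4 CPM in wild-type cells, with a ratio of 2.05 (1.92 to 2.19). In Gpha2-gated cells its levels were 310 CPM in labelled-heterozygous and 114 CPM in wild-type cells, with a ratio of 2.71 (2.26 to 3.28). Both libraries thus had more Gclm RNA in the Gpha2-gated than in the Krt12-high class. The share of these classes differed, and its part in the larger ratio over all epithelial cells was not tested. In the library labelled heterozygous the Gpha2-gated cells stood above the Krt4-gated cells, at 310 against 120 CPM.

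Its catalytic partner Gclc (ENSMUSG00000032350, chromosome 9, 77754535 to 77794485, plus strand) differed less, at 73.8 CPM in labelled-heterozygous and 56.0 CPM in wild-type epithelial cells, a ratio of 1.32 (1.28 to 1.36). In Gpha2-gated cells the interval included 1, at 76.6 CPM in labelled-heterozygous and 66.5 CPM in wild-type cells, with a ratio of 1.15 (0.905 to 1.49). Wild-type Gclc moved with keratin: it stood at 27.8 CPM in cells with 100 or more keratin UMIs per 10000 and at 69.8 CPM in those with 30 to 100. In labelled-heterozygous cells these values were 69.0 CPM with 100 or more and 98.9 CPM with 30 to 100. Among the cells with 100 or more, 5219 labelled-heterozygous and 1989 wild-type, the ratio was 2.48 (2.32 to 2.65). There 4 of 8 genes were counted as higher (Gclc, Gclm, Txnrd1 and Hmox1), against 20.2% of genes, and 0 as lower, against 7.62%; this limit was chosen after the data were seen.

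Slc7a11, the transport subunit of the cystine importer (ENSMUSG00000027737, chromosome 3, 49892526 to 50443614, minus strand), showed the highest ratio of the 10 genes in epithelial cells. It had 2091 UMIs in epithelial cells of the library labelled heterozygous and 116 in those of the wild-type library, 20.2 CPM in labelled-heterozygous and 1.04 CPM in wild-type cells. The ratio was 19.4 (16.1 to 23.6). After each cell was thinned to 5000 UMIs, 9.21% (8.49 to 9.98%, exact binomial) of 5938 labelled-heterozygous cells and 0.504% (0.351 to 0.700%) of 6944 wild-type cells held a Slc7a11 UMI. Before thinning it was 18.1% of labelled-heterozygous and 1.29% of wild-type cells. Vascular endothelial cells, taken as a background class, held one in 2 of 228 labelled-heterozygous cells (0.877%) and in 0 of 70 wild-type cells. A rough limit of 3 cells in 70 would be a share of 4.29%, which is not the exact interval. Their median depth was 7157 UMIs in labelled-heterozygous and 4535 in wild-type cells, against 14175 in labelled-heterozygous and 11294 in wild-type epithelial cells.

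Among labelled-heterozygous epithelial classes Slc7a11 was highest in the Gpha2-gated cells. There it stood at 36.0 CPM (1033 UMIs), against 0.978 CPM (1 UMI) in the 110 wild-type cells. With that single wild-type UMI the ratio of 36.7 has an interval of 6.58 to 1453. Krt4-gated cells of the library labelled heterozygous had 11.1 CPM, and Gpha2-gated cells stood 3.23-fold (2.88 to 3.62) above them. Krt12-high cells had 1.77 CPM (18 UMIs) when labelled heterozygous and 1.03 CPM (113 UMIs) in wild type, and the interval of their ratio, 0.980 to 2.83, included 1. Within the Gpha2-gated class of the library labelled heterozygous, the 581 cells with a Slc7a11 UMI had Gclm at 360 CPM and the 1597 without had 290 CPM, with a ratio of 1.24 (1.19 to 1.30). Hmox1 stood at 27.4 CPM in those with and 26.6 CPM in those without, with an interval that included 1. Median depths of these cells were close, at 13773 UMIs with and 13077 without.

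Hmox1, which breaks down haem (ENSMUSG00000005413, plus strand of chromosome 8, 75093621 to 75100589), was at 20.1 CPM in labelled-heterozygous and 5.23 CPM in wild-type epithelial cells, a ratio of 3.85 (3.51 to 4.22). This level lay just above the 20 CPM minimum, and fell under it without the cells that also passed a non-epithelial gate. In Gpha2-gated cells the levels were 26.8 CPM (771 UMIs) for labelled-heterozygous and 5.87 CPM (6 UMIs) for wild type, with a ratio of 4.57 (2.09 to 12.5). Krt12-high cells had 9.15 CPM in labelled-heterozygous and 5.19 CPM in wild-type cells, under the minimum. In the library labelled heterozygous the top 10% of epithelial cells held 77.8% of Hmox1 UMIs, close to the 73.7% of Slc7a11, which had a like mean of 0.308 UMIs per cell against 0.306 for Hmox1. Part of the Hmox1 RNA sat in cells high in genes that tissue digestion is known to induce. Without cells high in Fos, Jun, Junb, Egr1, Hspa1a and Hspa1b, which left 3861 labelled-heterozygous and 3613 wild-type epithelial cells, Hmox1 stood at 9.68 CPM in labelled-heterozygous and 1.33 CPM in wild-type cells, with a ratio of 7.27, and Gclm stood at 203 CPM in labelled-heterozygous and 51.2 CPM in wild-type cells.

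Txnrd1, the cytosolic thioredoxin reductase (ENSMUSG00000020250, plus strand of chromosome 10, 82833951 to 82897712), was at 94.5 CPM in labelled-heterozygous and 35.3 CPM in wild-type epithelial cells, a ratio of 2.68 (2.58 to 2.78). The difference did not hold within the Gpha2-gated class. There its levels were 124 CPM in labelled-heterozygous and 132 CPM in wild-type cells, with a ratio of 0.940 (0.792 to 1.12). In Krt12-high cells they were 62.1 CPM in labelled-heterozygous and 34.1 CPM in wild-type cells, with a ratio of 1.82 (1.67 to 1.98), under 2-fold. Wild-type Krt12-high cells had 34.1 CPM against 102 CPM in wild-type Krt12-low cells. The share of Krt12-low cells differed between the libraries, and its part in the ratio over all epithelial cells was not tested. Without the stress-high cells the Gpha2-gated class gave 90.2 CPM in 1132 labelled-heterozygous cells and 20 CPM (4 UMIs) in 24 wild-type cells, too few for a comparison.

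**Figure D1:**
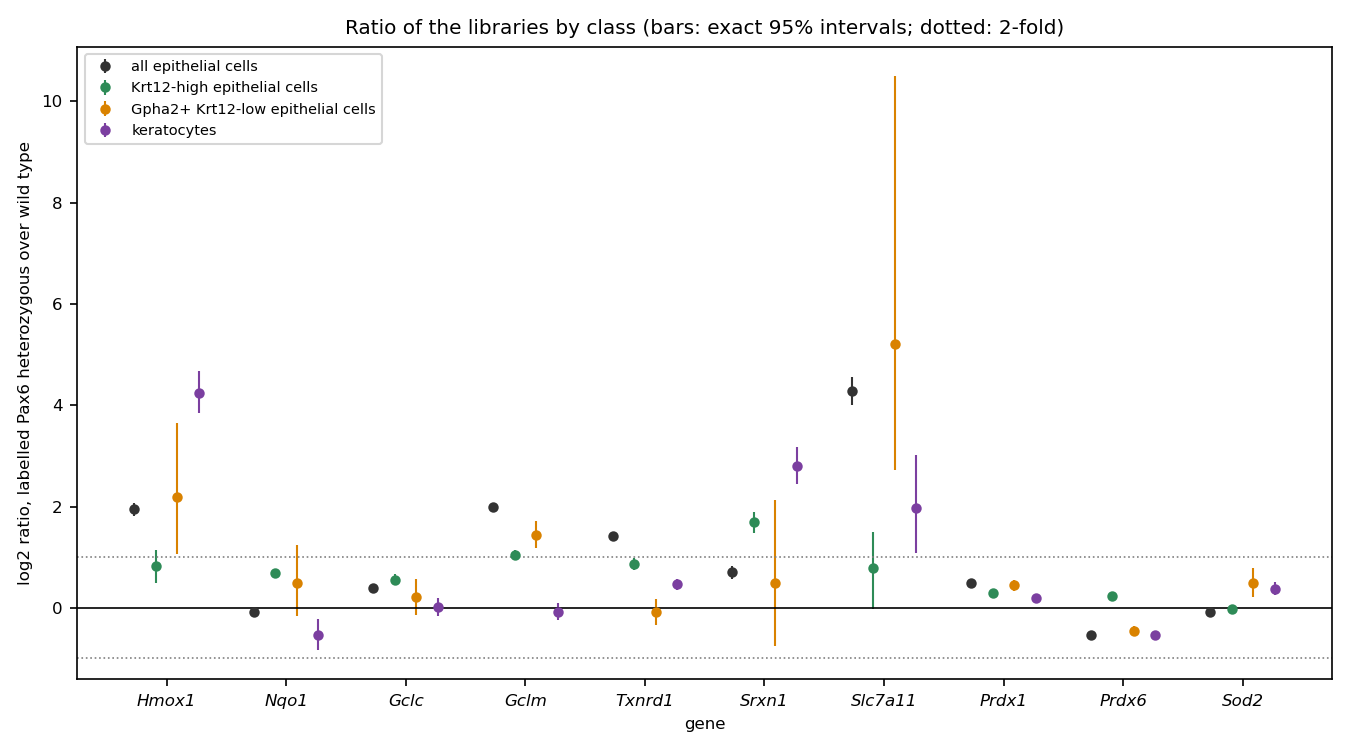
Ratio of each of the 10 genes between the library labelled Pax6 heterozygous and the wild-type library (vertical axis, log2), in 4 classes of cells (colours), with exact 95% intervals and dotted lines at 2-fold. Slc7a11 is highest in Gpha2-gated cells (Gpha2+ Krt12-low) with an interval up to 1453-fold, Hmox1 and Srxn1 are highest in keratocytes, and Txnrd1 is near 0 in Gpha2-gated cells.

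Within Krt12-high cells alone, 581 labelled-heterozygous and 8376 wild-type, 8 of the 10 genes reached 20 CPM and 2 were counted as higher, against 8.92% of 6716 genes, and 0 as lower, against 5.17%. These were Gclm and Srxn1. Srxn1, which repairs over-oxidised peroxiredoxins (ENSMUSG00000032802, plus strand of chromosome 2, 152105516 to 152111376), was at 24.1 CPM in labelled-heterozygous and 7.46 CPM in wild-type cells of this class, a ratio of 3.23 (2.79 to 3.73). In Gpha2-gated cells it was at 6.89 CPM in labelled-heterozygous and 4.89 CPM in wild-type cells, under the minimum. In that class 3 of the 9 genes at 20 CPM (Slc7a11, Hmox1 and Gclm) were counted as higher, against 7.61% of 7131 genes, and 0 as lower, against 4.05%.

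At the limits used, Gclm was counted as higher in each class of the single splits by Krt12, Gpha2 and Krt4, and 0 of the 10 genes were counted as lower in any of them. It came under 2-fold in Krt4-positive cells with the Krt4 limit at 5 per 10000 (log2 ratio 0.85), and in Krt12-low cells with the Krt12 limit at 10 per 10000 (0.92) or without stress-high cells (0.92). In Krt12-low cells, 6215 labelled-heterozygous and 176 wild-type, the 3 of 9 counted as higher were Slc7a11, Hmox1 and Gclm, against 5.9% of genes (lower: 3.34%). In Gpha2-positive cells, 2817 labelled-heterozygous and 596 wild-type, they were the same 3 of 9, against 8.98% (lower: 5.19%), and Slc7a11 stood at 32.1 CPM (1298 UMIs) in labelled-heterozygous and 0.780 CPM (5 UMIs) in wild-type cells, with a ratio of 41.2 (17.6 to 127). Most Gpha2-positive cells were Krt12-low in the library labelled heterozygous and Krt12-high in the wild-type library, 461 of 596. In Gpha2-negative cells the 2 of 7 were Gclm and Txnrd1, against 11.6% (lower: 5.94%).

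The Krt4 split brought Gclc forward. In Krt4-positive cells, 2867 labelled-heterozygous and 195 wild-type, the 2 of 7 counted as higher were Gclc, at 66.5 CPM in labelled-heterozygous and 21.3 CPM in wild-type cells, with a ratio of 3.13 (2.53 to 3.92), and Gclm, at 142 CPM in labelled-heterozygous and 57.3 CPM in wild-type cells, with a ratio of 2.47 (2.17 to 2.83), against 18.2% of genes (lower: 5.75%). Slc7a11 had 13.4 CPM in labelled-heterozygous and 1.98 CPM in wild-type cells there, under the minimum. In Krt4-negative cells the 4 of 9 were Slc7a11, Hmox1, Gclm and Txnrd1, against 15.7% (lower: 8.38%), with Gclm at 253 CPM in labelled-heterozygous and 49.0 CPM in wild-type cells, a ratio of 5.17 (5.01 to 5.34). In the 25 wild-type Krt4-gated cells the levels of Hmox1, Srxn1 and Slc7a11 rest on 7 or fewer UMIs each.

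Nqo1, the quinone reductase (ENSMUSG00000003849, chromosome 8, 107388225 to 107403206, minus strand), is the gene often read as the marker of NRF2 activity. Over all epithelial cells its levels were 58.8 CPM in labelled-heterozygous and 62.6 CPM in wild-type cells, with a ratio of 0.939 (0.908 to 0.972). Within Krt12-high cells it was higher, at 101 CPM in labelled-heterozygous and 63.2 CPM in wild-type cells, with a ratio of 1.60 (1.5 to 1.71), still under 2-fold. In Gpha2-gated cells it was at 26.2 CPM in labelled-heterozygous and 18.6 CPM in wild-type cells, with a ratio of 1.41 (0.898 to 2.36). Both libraries therefore had less Nqo1 RNA in Gpha2-gated than in Krt12-high cells, the reverse of Gclm.

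The abundant peroxide-removing enzymes differed by less than 2-fold. Prdx1, a thioredoxin-dependent peroxidase (ENSMUSG00000028691, plus strand of chromosome 4, 116685544 to 116700822), was at 1136 CPM in labelled-heterozygous and 813 CPM in wild-type epithelial cells, a ratio of 1.40 (1.39 to 1.41), and was above 1 in both the Krt12-high and the Gpha2-gated class. Prdx6, which uses glutathione (ENSMUSG00000026701, chromosome 1, 161240112 to 161251219, minus strand), was lower, at 664 CPM in labelled-heterozygous and 969 CPM in wild-type cells, with a ratio of 0.685 (0.678 to 0.691). Its direction differed by class: in Krt12-high cells the levels were 1141 CPM in labelled-heterozygous and 974 CPM in wild-type cells, with a ratio of 1.17 (1.15 to 1.19), and in Gpha2-gated cells they were 601 CPM in labelled-heterozygous and 823 CPM in wild-type cells, with a ratio of 0.731 (0.682 to 0.784). The near-identical copy Prdx6b had 1 UMI in epithelial cells of each library. Sod2 (ENSMUSG00000006818, plus strand of chromosome 17, 13006846 to 13040063) was at 190.0 CPM in labelled-heterozygous and 200.3 CPM in wild-type epithelial cells and at 143 CPM in labelled-heterozygous and 102 CPM in wild-type Gpha2-gated cells, a ratio of 1.41 (1.16 to 1.73).

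**Figure D2:**
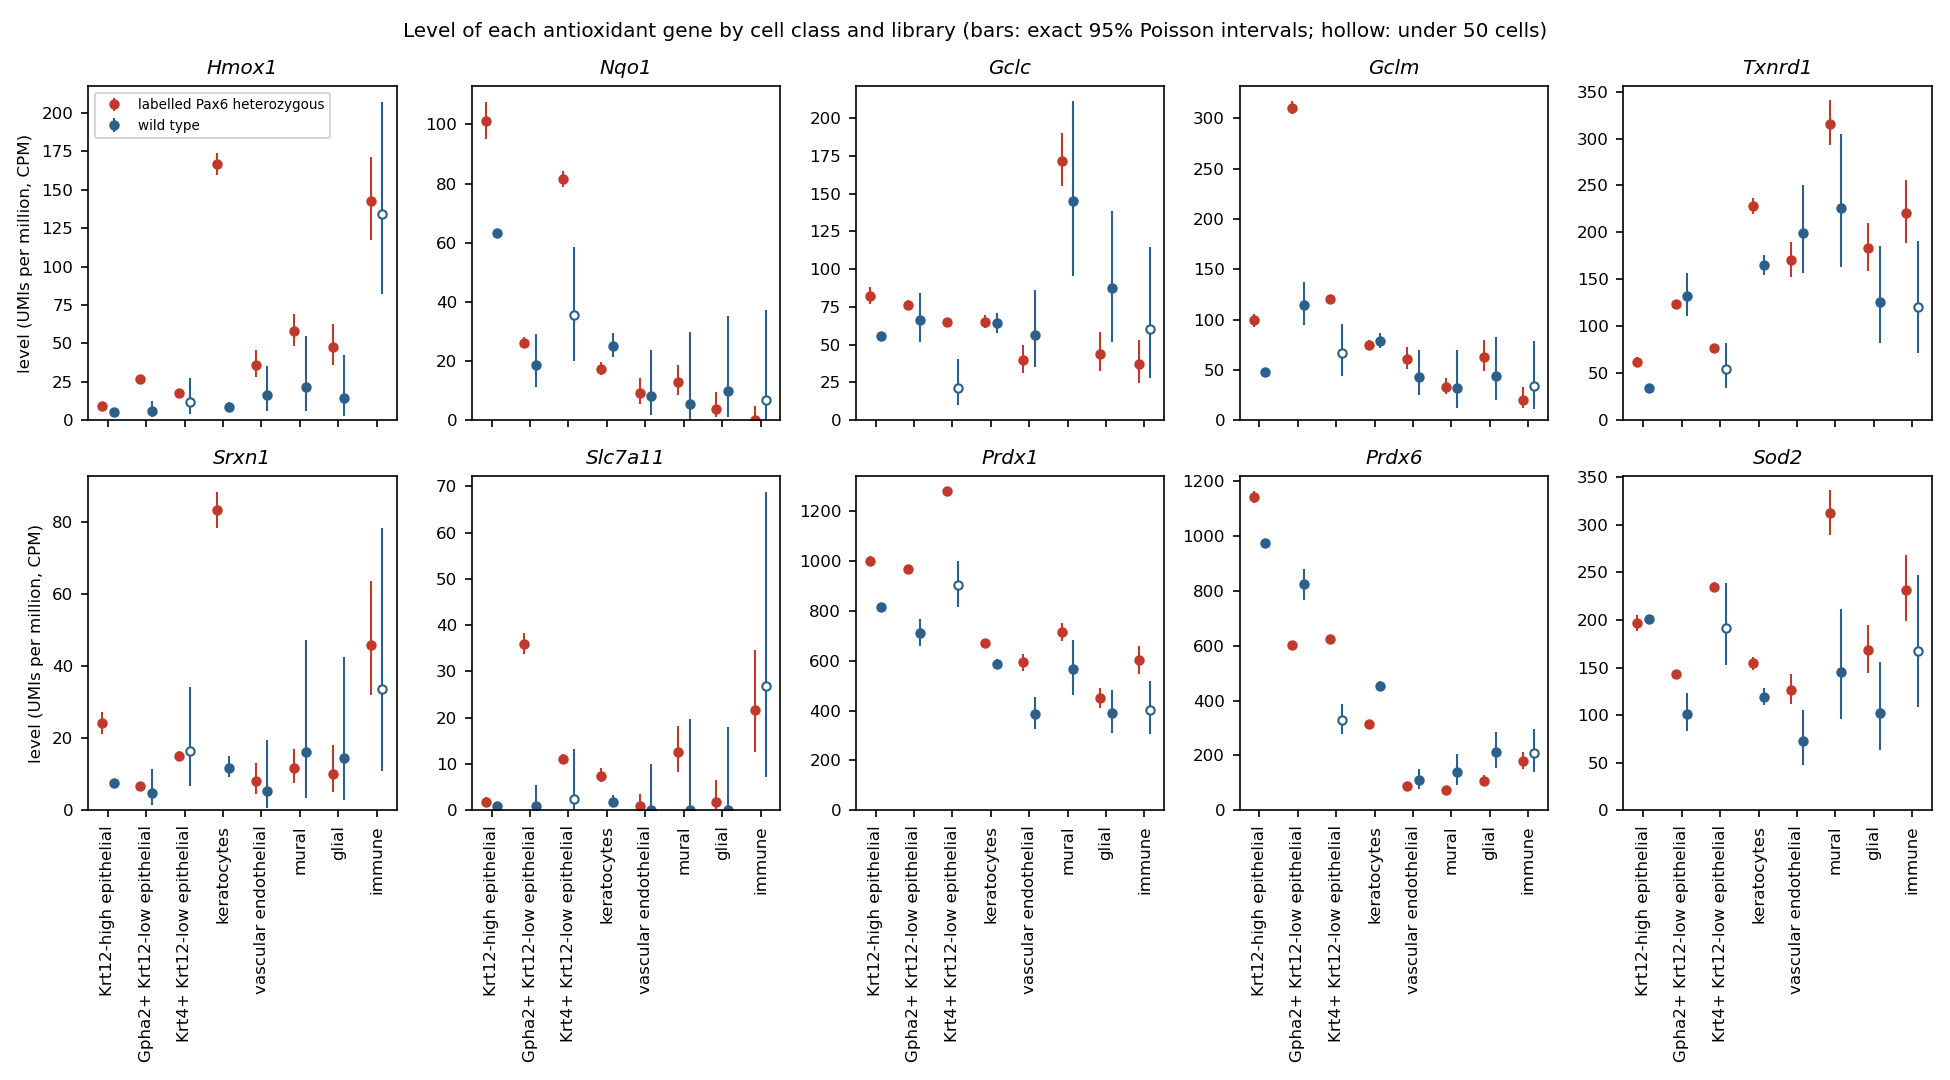
Level of each gene (vertical axes, CPM, each starting at 0) in 8 cell classes, of which mural, glial and immune include cells that passed several gates (horizontal axes) for the library labelled Pax6 heterozygous (red, left of each pair) and the wild-type library (blue), with exact 95% Poisson intervals and hollow points for classes under 50 cells. Keratocytes of the library labelled heterozygous stand at 167 CPM for Hmox1 and 83.1 CPM for Srxn1, against 8.78 CPM for Hmox1 and 11.9 CPM for Srxn1 in wild-type keratocytes.

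Keratocytes, the fibroblasts of the corneal stroma, were gated on 3 or more of 8 markers below the keratin limit, 1057 cells in the library labelled heterozygous and 672 in the wild-type library. Of these, 496 labelled-heterozygous and 103 wild-type cells had under 10 UMIs per 10000 of the marker Kera, and may include other fibroblasts. This makeup differed between the libraries, and its part in the ratios over all keratocytes was not tested. Hmox1 and Srxn1 stood out there. Of 9 genes at 20 CPM, those 2 were counted as higher and 0 as lower, against 8.77% and 5.61% of 7096 genes. Hmox1 stood at 167 CPM (2167 UMIs) in labelled-heterozygous and 8.78 CPM (51 UMIs) in wild-type keratocytes, with a ratio of 19.0 (14.4 to 25.6). Srxn1 stood at 83.1 CPM in labelled-heterozygous and 11.9 CPM in wild-type cells, with a ratio of 6.99 (5.48 to 9.05). Gclm, counted as higher over all epithelial cells, stood at 75.2 CPM in labelled-heterozygous and 79.2 CPM in wild-type cells, with a ratio of 0.95 (0.849 to 1.06). Slc7a11 stayed under the minimum, at 7.45 CPM in labelled-heterozygous and 1.89 CPM in wild-type cells.

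The rest of the keratocyte values were closer together. Txnrd1 stood at 228 CPM in labelled-heterozygous and 165 CPM in wild-type cells, with a ratio of 1.38 (1.28 to 1.49), and Sod2 at 155 CPM in labelled-heterozygous and 119 CPM in wild-type cells, with a ratio of 1.30 (1.19 to 1.42). Nqo1 was lower, at 17.4 CPM in labelled-heterozygous and 25.1 CPM in wild-type cells, with a ratio of 0.691 (0.559 to 0.857), and so was Prdx6, at 314 CPM in labelled-heterozygous and 454 CPM in wild-type cells, with a ratio of 0.691 (0.658 to 0.726). Gclc stood at 65.2 CPM in labelled-heterozygous and 64.4 CPM in wild-type cells and Prdx1 at 669 CPM in labelled-heterozygous and 587 CPM in wild-type cells.

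The keratocyte Hmox1 signal came from a minority of cells. In the library labelled heterozygous the top 10% of keratocytes held 66.7% of Hmox1 UMIs, and 1 cell held 56. After thinning to 5000 UMIs, 31.7% (28.6 to 34.9%) of 852 labelled-heterozygous and 4.27% (2.76 to 6.29%) of 562 wild-type keratocytes held a Hmox1 UMI. Before thinning it was 40.0% of labelled-heterozygous and 5.21% of wild-type keratocytes. For comparison, 3.66% of 519 labelled-heterozygous and 1.98% of 6782 wild-type Krt12-high cells held one after thinning, and 11.5% of labelled-heterozygous and 4.99% of wild-type ones before. Median depth was 17276 UMIs in labelled-heterozygous and 11366 in wild-type Krt12-high cells, and 13830 in labelled-heterozygous and 9246 in wild-type keratocytes. No class here can be taken to lack Hmox1, so these are not a background. Keratocytes with a Hmox1 UMI had more Txnrd1 RNA than those without, 273 against 185 CPM, with a ratio of 1.47 (1.37 to 1.58). They also had more Srxn1 RNA, 94.9 against 71.9 CPM, and more Sod2 RNA, 179 against 132 CPM. Prdx1 was slightly higher, with a ratio of 1.05 (1.00 to 1.09). Slc7a11 was lower, 4.91 against 9.85 CPM, with a ratio of 0.499 (0.314 to 0.775). For Nqo1, Gclc, Gclm and Prdx6 the interval included 1. Cells with the UMI were also deeper, with a median of 15662 UMIs against 11556 without.

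Both keratocyte differences were present in cells rich in Kera, the keratan sulphate core protein, and in those poor in it. At 10 or more Kera UMIs per 10000 (561 labelled-heterozygous and 569 wild-type cells), Hmox1 stood at 159 CPM in labelled-heterozygous and 6.08 CPM in wild-type cells and Srxn1 at 105 CPM in labelled-heterozygous and 12.2 CPM in wild-type cells. Txnrd1 stood there at 197 CPM in labelled-heterozygous and 169 CPM in wild-type cells, with a ratio of 1.17 (1.08 to 1.27). Below that limit (496 labelled-heterozygous and 103 wild-type cells), Hmox1 stood at 181 CPM in labelled-heterozygous and 34.9 CPM in wild-type cells and Srxn1 at 40.9 CPM in labelled-heterozygous and 9.18 CPM in wild-type cells, and Txnrd1 at 288 CPM in labelled-heterozygous and 129 CPM in wild-type cells, with a ratio of 2.24 (1.76 to 2.89). Digestion-induced genes divided in keratocytes. Of 9, 4 (Fosb, Hspa1a, Hspa1b and Dnajb1) were at least 2-fold higher in the library labelled heterozygous and 0 lower, against 8.77% and 5.61% of genes. Hspa1a stood at 335 CPM in labelled-heterozygous and 70.9 CPM in wild-type cells. The others were under 2-fold, with ratios of 1.25 for Jun, 1.19 for Ier2, 0.932 for Junb, 0.761 for Egr1 and 0.579 for Fos. Fos stood at 2570 CPM in labelled-heterozygous and 4442 CPM in wild-type cells. Without the stress-high keratocytes, 467 labelled-heterozygous and 137 wild-type cells were left. In these Hmox1 had 497 UMIs in labelled-heterozygous and 0 UMIs in wild-type cells. Its level was 24.7-fold that of a floor of 3 UMIs over the wild-type class, which is not the limit of an interval. Srxn1 stood at 98.6 CPM in labelled-heterozygous and 16 CPM in wild-type cells, with a ratio of 6.17.

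Of 9 NRF2 regulators at 20 CPM in keratocytes, 2 were counted as higher and 0 as lower. Maff, a small MAF partner of NRF2, stood at 360.1 CPM in labelled-heterozygous and 40.6 CPM in wild-type cells, 8.86-fold higher, and Mafk at 160.5 CPM in labelled-heterozygous and 62.7 CPM in wild-type cells, 2.56-fold higher, while Nfe2l2 stood at 239 CPM in labelled-heterozygous and 227 CPM in wild-type cells. Among other known NRF2 targets, Osgin1 stood at 29.97 CPM in labelled-heterozygous and 6.03 CPM in wild-type cells and Ugdh at 549.9 CPM in labelled-heterozygous and 70.2 CPM in wild-type cells, and 5 other genes of the 7 at 20 CPM were under 2-fold. Of 5 NF-kB targets at that level, 3 (Nfkb1, Birc3 and Icam1) were counted as higher. Over all 7096 genes at that level in keratocytes, 8.77% were counted as higher and 5.61% as lower. The median log2 ratio was 0.11 for the regulators, -0.36 for the other NRF2 targets and -0.14 over all genes.

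Vessel, nerve-sheath and immune cells were few, and their intervals are wide. In vascular endothelial cells, 228 labelled-heterozygous and 70 wild-type, Hmox1 stood at 36.2 CPM (72 UMIs) in labelled-heterozygous and 16.2 CPM (6 UMIs) in wild-type cells, with a ratio of 2.24 (0.982 to 6.31). It was the 1 gene of 7 at 20 CPM counted as higher, against 10.4% of genes (lower: 4.92%). Cells that passed several gates were shared out by marker share, an allocation chosen after the data were seen, to reach more cells. It gave 322 mural, 211 glial, 108 immune and 157 lymphatic endothelial cells in the library labelled heterozygous, and 50 mural, 72 glial, 34 immune and 14 lymphatic endothelial cells in the wild-type library. In mural cells, the muscle cells and pericytes of vessel walls, Sod2 stood at 312 CPM in labelled-heterozygous and 145 CPM in wild-type cells, with a ratio of 2.15 (1.46 to 3.29), and Hmox1 at 58.1 CPM in labelled-heterozygous and 21.5 CPM (4 UMIs) in wild-type cells, so 2 of 7 were counted as higher, against 12.9% of genes (lower: 11.8%). Of 8 keratocyte markers, 7 reached 20 CPM in labelled-heterozygous mural cells with a sum of 4500 CPM, and 6 in wild-type ones with a sum of 2403 CPM; their part in the result was not tested.

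In glial cells 1 of 7 genes was counted as higher, Hmox1 at 47.8 CPM in labelled-heterozygous and 14.6 CPM (3 UMIs) in wild-type cells, against 16% of genes, and Prdx6 was lower, at 107 CPM in labelled-heterozygous and 214 CPM in wild-type cells, with a ratio of 0.499 (0.350 to 0.723), just past the limit, against 8.11% counted as lower. Under the gate without that allocation, 43 labelled-heterozygous and 65 wild-type cells, Prdx6 stood at 141 CPM in labelled-heterozygous and 221 CPM in wild-type cells, with a ratio of 0.637 (0.363 to 1.10), and 1 of 7 genes (Hmox1) was counted as higher and 0 as lower, against 22.1% and 12.3% of genes. Keratocyte markers summed to 2320 CPM in labelled-heterozygous and 632 CPM in wild-type glial cells of the allocation; their part in the result was not tested. Immune cells, which recycle haem, had Hmox1 at 143 CPM in labelled-heterozygous and 134 CPM in wild-type cells, with a ratio of 1.06 (0.656 to 1.81), and Slc7a11 at 21.6 CPM (17 UMIs) in labelled-heterozygous and 26.8 CPM (4 UMIs) in wild-type cells. No gene of 9 was counted as higher or lower there, against 16.1% and 17% of genes. Under the gate without the allocation, 81 labelled-heterozygous and 31 wild-type cells, 1 of 9 was counted as higher and 0 as lower, against 16.4% and 19.4% of genes. It was Srxn1, at 48.4 CPM in labelled-heterozygous and 21.8 CPM (3 UMIs) in wild-type cells, with a ratio of 2.22 (0.685 to 11.4). Keratocyte markers summed to 2962 CPM in labelled-heterozygous and 268 CPM in wild-type immune cells of the allocation, and their part was not tested. In lymphatic endothelial cells, with 14 wild-type cells, 2 of 8 genes were counted as higher and 0 as lower, against 16.4% and 13.5% of genes. These were Sod2, at 159 CPM in labelled-heterozygous and 45.9 CPM (4 UMIs) in wild-type cells, with a ratio of 3.46 (1.34 to 12.8), and Hmox1, at 106 CPM in labelled-heterozygous and 34.5 CPM (3 UMIs) in wild-type cells, with a ratio of 3.07 (1.03 to 15.0). Across the classes of the wild-type library with 50 or more cells, Hmox1 ranged from 5.19 CPM in Krt12-high cells to 21.5 CPM in mural cells, with Gpha2-gated cells, keratocytes, glial and vascular cells between them in that order. The interval of each class overlapped that of its neighbour, but those of keratocytes (6.54 to 11.5 CPM), vascular (5.93 to 35.2 CPM) and mural cells (5.86 to 55.1 CPM) lay above that of Krt12-high cells (4.77 to 5.63 CPM). In the library labelled heterozygous, keratocytes at 167 CPM and immune cells at 143 CPM stood above lymphatic cells at 106 CPM and above the other classes in that plot of levels.

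The sexes of the cells differed between libraries, and the levels were therefore also taken within marked cells. Wild-type cells carried Xist, while the library labelled heterozygous held cells with Xist and cells with Y-linked UMIs. Gclm in epithelial cells stood at 199 CPM in both kinds of cell of the library labelled heterozygous, and at 49.4 CPM in Xist cells of the wild-type library. Slc7a11 stood at 18.2 CPM in Xist cells and 23.9 CPM in Y-linked cells of the library labelled heterozygous, and at 1.05 CPM in wild-type Xist cells. In keratocytes Srxn1 stood at 46.5 CPM in 245 Xist cells and 94.6 CPM in 649 Y-linked cells, against 11.2 CPM in 625 wild-type Xist cells. Hmox1 in keratocytes stood at 130 CPM in Xist cells and 181 CPM in Y-linked cells, against 8.95 CPM in wild-type Xist cells. These directions were the same in both kinds of cell, and the size of the Srxn1 difference was not. In Krt12-high cells Srxn1 stood at 29.0 CPM in labelled-heterozygous Xist cells and at 11.8 CPM (27 UMIs) in 117 Y-linked cells, against 7.42 CPM in wild-type Xist cells, so in the Y-linked cells it was not counted as higher. Gclm in that class stood at 89.7 CPM in Xist cells, under 2-fold, and at 112 CPM in Y-linked cells, against 48.4 CPM in wild-type Xist cells.

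Around these 10 genes, 85 others of the pathway were counted in epithelial cells in 10 lists. Over all 7092 genes at 20 CPM there, 13.2% were counted as higher and 6.44% as lower. The counts are over all epithelial cells, whose makeup differed, and levels within classes are given for some genes. None of the 9 NRF2 regulators at 20 CPM passed 2-fold in either direction. Nfe2l2 stood at 159 CPM in labelled-heterozygous and 125 CPM in wild-type cells and Keap1 at 53.1 CPM in labelled-heterozygous and 46.2 CPM in wild-type cells. Mafg was the highest, at 58.9 CPM in labelled-heterozygous and 29.99 CPM in wild-type cells, with a ratio of 1.97 (1.88 to 2.05), followed by the repressor Bach1, at 106 CPM in labelled-heterozygous and 61.7 CPM in wild-type cells, with a ratio of 1.71 (1.66 to 1.77). Sqstm1, the autophagy adaptor that binds KEAP1, was the lowest, at 242 CPM in labelled-heterozygous and 389 CPM in wild-type cells, with a ratio of 0.621 (0.612 to 0.631). Within Krt12-high cells Sqstm1 stood at 417 CPM in labelled-heterozygous and 391 CPM in wild-type cells. Within Gpha2-gated cells it stood at 228 CPM in labelled-heterozygous and 254 CPM in wild-type cells.

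Glutathione and thioredoxin genes divided. Of 7 glutathione genes at 20 CPM, 2 were higher and 0 lower, against 13.2% and 6.44% of genes: Slc3a2, the heavy chain that carries xCT to the membrane, stood at 240 CPM in labelled-heterozygous and 88.7 CPM in wild-type cells, and Gpx8, a peroxidase of the endoplasmic reticulum, at 58.2 CPM in labelled-heterozygous and 23.7 CPM in wild-type cells. Within Krt12-high cells, labelled-heterozygous against wild type, Slc3a2 stood at 171 against 86.9 CPM and Gpx8 at 37.7 against 22.8 CPM. Within Gpha2-gated cells Slc3a2 stood at 318 against 255 CPM and Gpx8 at 64.1 against 79.2 CPM. Gpx4, which removes lipid peroxides, had the lowest ratio, 0.721, at 193 CPM in labelled-heterozygous and 268 CPM in wild-type cells. Of 10 thioredoxin and peroxiredoxin genes, 2 were higher and 0 lower, against 13.2% and 6.44% of genes. Prdx4, the peroxiredoxin of the endoplasmic reticulum, stood at 68.0 CPM in labelled-heterozygous and 11.9 CPM in wild-type cells, with a ratio of 5.70 (5.37 to 6.04), and Txnip, an inhibitor of thioredoxin, at 358 CPM in labelled-heterozygous and 139 CPM in wild-type cells. Within Krt12-high cells, labelled-heterozygous against wild type, Prdx4 stood at 44.9 against 11.6 CPM and Txnip at 189 against 134 CPM. Within Gpha2-gated cells Prdx4 stood at 81.6 against 31.3 CPM, and Txnip was lower, at 446 against 528 CPM. Prdx5 and Sesn2 lay just above the limit for lower, with ratios of 0.512 and 0.515.

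Of 5 genes of NADPH supply at 20 CPM, 0 were higher and 1 lower, and of 9 other NRF2 targets 1 was higher and 1 lower, with median log2 ratios of -0.23 for NADPH supply and -0.27 for the other targets. Over all genes 13.2% were higher and 6.44% lower. Transketolase (Tkt) stood at 1294 CPM in labelled-heterozygous and 5696 CPM in wild-type cells, with a ratio of 0.227, and Aldh3a1, the corneal aldehyde dehydrogenase, at 2659 CPM in labelled-heterozygous and 10801 CPM in wild-type cells, with a ratio of 0.246. Both are abundant corneal proteins. Within Krt12-high cells, labelled-heterozygous against wild type, Tkt stood at 5046 against 5777 CPM and Aldh3a1 at 11342 against 10956 CPM. Within Gpha2-gated cells Tkt stood at 1123 against 1588 CPM and Aldh3a1 at 1213 against 1587 CPM. The drug and glutathione-conjugate exporter Abcc1 was higher, at 52.7 CPM in labelled-heterozygous and 10.1 CPM in wild-type cells, with a ratio of 5.23 (4.90 to 5.58). Its levels, labelled-heterozygous against wild type, were 27.6 against 9.49 CPM in Krt12-high cells and 51.9 against 39.1 CPM in Gpha2-gated cells. In the haem and iron list 2 of 6 were higher, against 13.2% of genes, the transferrin receptor Tfrc at 36.6 CPM in labelled-heterozygous and 6.88 CPM in wild-type cells and the ferritin chain Ftl1 at 579 CPM in labelled-heterozygous and 253 CPM in wild-type cells. Within Krt12-high cells, labelled-heterozygous against wild type, Tfrc stood at 27.9 against 6.61 CPM and Ftl1 at 474 against 251 CPM. Within Gpha2-gated cells Tfrc stood at 24.3 against 21.5 CPM and Ftl1 at 944 against 546 CPM. Of 3 superoxide dismutase and catalase genes 1 was higher, against 13.2% of genes, Sod1 at 59.8 CPM in labelled-heterozygous and 29.9 CPM in wild-type cells, with a ratio of 2.00 (1.92 to 2.09), and Cat had a ratio of 1.95. For Sod1, labelled-heterozygous against wild type, the levels were 41.9 against 29.5 CPM in Krt12-high cells and 82.2 against 64.6 CPM in Gpha2-gated cells.

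Programmes other than NRF2 that are known to act on some of the 10 genes were counted too. Of 3 amino acid response genes at 20 CPM, 1 was higher, against 13.2% of genes, Ddit4 at 23.9 CPM in labelled-heterozygous and 5.73 CPM in wild-type cells, while Atf4 RNA stood at 148 CPM in labelled-heterozygous and 118 CPM in wild-type cells, and both Trib3 (2.98 CPM in labelled-heterozygous, 0.288 CPM in wild-type cells) and Ddit3 (19.2 CPM in labelled-heterozygous, 4.70 CPM in wild-type cells) stayed under the minimum. Another row of the count tables also carries the symbol Ddit3, and only the first row was used. For Ddit4, labelled-heterozygous against wild type, the levels were 15.0 against 5.66 CPM in Krt12-high cells and 29.9 against 11.7 CPM in Gpha2-gated cells. Of 6 NF-kB targets, 1 was higher and 1 lower, against 13.2% and 6.44% of genes. Icam1 was higher, at 142 CPM in labelled-heterozygous and 12.1 CPM in wild-type cells, and Tnfaip3 was lower, at 14.2 CPM in labelled-heterozygous and 31.5 CPM in wild-type cells. Within Krt12-high cells, labelled-heterozygous against wild type, Icam1 stood at 61.3 against 10.0 CPM and Tnfaip3 at 12.8 against 31.1 CPM. Within Gpha2-gated cells Icam1 stood at 238 against 188 CPM and Tnfaip3 at 12.8 against 38.2 CPM. None of the 9 digestion-induced genes passed 2-fold in epithelial cells; Hspa1a had the highest ratio, 1.94, and Fos and Junb the lowest, both 0.53 when rounded. The wild-type library thus had more Fos and Junb RNA in epithelial cells, and the library labelled heterozygous more Hspa1a RNA.

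**Figure D3:**
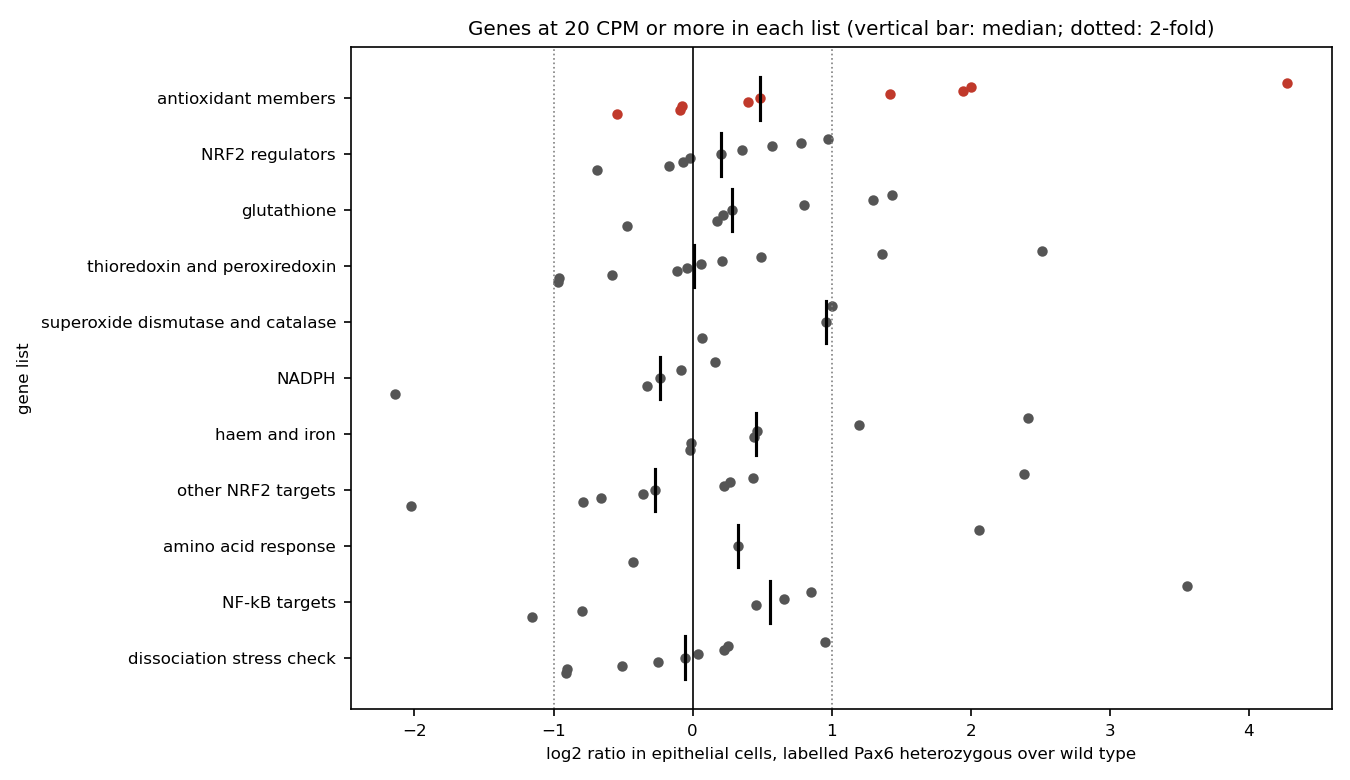
Log2 ratio in epithelial cells between the library labelled Pax6 heterozygous and the wild-type library (horizontal axis) for the genes at 20 CPM or more in each list (points; vertical bars are medians; dotted lines mark 2-fold). The 10 antioxidant genes (red, 9 shown) have a median of 0.48, the NRF2 regulators one of 0.20 with no gene past 2-fold, and the list of other NRF2 targets one of -0.27.

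Genes most like each of the 10 were sought over 13 class and library units of 50 or more cells, among 10715 genes, by Pearson's r of log2(CPM + 1). The units share 2 libraries and differ in depth, so r is a description. Gclm was most like Gstm1, a glutathione transferase (r = 0.97), and Prdx1 most like Atp5o, a subunit of ATP synthase (r = 0.99). Slc7a11 was most like Scand1 (0.92), Pold4 (0.89) and Ssr4 (0.87). Hmox1 was most like Arih2, Mcoln2 and Hilpda (0.88, 0.88 and 0.87), and Nqo1 like Nr2f6, Mpst and Fam241b (0.96, 0.95 and 0.95). No other of the 10 genes was among the 3 most alike for any of them.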

How the data were processed

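Droplet single-cell RNA sequencing was done by the authors on dissociated cornea and limbus. The deposited matrices hold counts, raw UMIs per gene and barcode without normalization. Per the file headers they were made with Cell Ranger 8.0.0, and per the submitters' processing notes on build GRCm38. No deposited barcode had under 500 UMIs, so low barcodes were already left out, by a rule not given in the sources used here.

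For each class and library, UMIs were summed and divided by the sum of all genes not encoded in mitochondria, as CPM. Ratios have the library labelled Pax6 heterozygous on top, with exact conditional binomial 95% intervals; levels have exact Poisson and shares exact Clopper-Pearson intervals. PCR and capture shared by a library are not covered by these. With 1 library per genotype no test, SE or p-value was possible. Classes are gates on summed marker levels, not clusters: a non-epithelial class needed 3 or more of its markers with a sum of 5 per 10000 UMIs and no other gate passed. No doublet caller was run, and leaving out the 5% deepest barcodes is an alternative. Scaling by edgeR 4.0.16 (TMM) and DESeq2 1.42.0 (size factors), in R 4.3.3, was tried only as an alternative; the rest used Python 3.11.15, numpy 2.4.6, scipy 1.17.1 and pandas 2.3.3. Gene positions are from GENCODE vM21 on the same build.

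The 10 genes, the lists and the markers were chosen with earlier results of these data known. From each list the text names mainly the 2 highest and lowest ratios at 20 CPM or more in epithelial cells, plus Nfe2l2, Keap1 and Bach1, and for keratocytes and for Trib3, Ddit3 and Atf4 genes chosen after their values were seen. Other alternatives were the keratin, Krt12, Gpha2 and Krt4 limits, the barcode filters, the minimum level, cells by sex marker, and cells high in neutrophil, ribosomal or stress RNA. The Kera split, the sharing out of cells that passed several gates, the Y-linked cells and the stress filter were chosen after seeing the data.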

Additional observations from a re-analysis of the deposited data

Results flagged for a closer look

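Nqo1 and Prdx6 went opposite ways in different cell classes under the same comparison, with counting intervals on opposite sides of 1. For Nqo1 the ratio of the library labelled Pax6 heterozygous to wild type was 1.60 in Krt12-high epithelial cells and 0.691 in keratocytes. The ratio was 0.693 (0.550 to 0.875) in keratocytes rich in Kera. In those poor in Kera the ratio was 2.01 (0.748 to 7.60), under the minimum and from 4 wild-type UMIs. For Prdx6 it was 1.17 in Krt12-high cells, 0.731 in Gpha2-gated cells and 0.691 in keratocytes. With 1 library per genotype the difference between classes was not tested.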

How the results depend on the processing

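The count of 4 genes higher in epithelial cells became 2 with edgeR TMM scaling, 2 with DESeq2 size factors, 2 with mitochondrial UMIs in the total, 2 without cells that also passed a non-epithelial gate and 2 in Xist cells only. Hmox1 and Slc7a11, at 20.1 and 20.2 CPM, lie at the 20 CPM minimum, and each of these changes took both under it. The cells that also passed a non-epithelial gate were 888 labelled-heterozygous and 95 wild-type. They made up 13.1% of labelled-heterozygous and 1.11% of wild-type epithelial cells. Whether they are mixed cells was not tested. Other alternatives gave 3 or 4, and 0 genes were lower in each. TMM and size factors moved every log2 ratio by -0.33 and -0.35. Over 15 alternatives the epithelial log2 ratio stayed between 3.47 and 4.73 for Slc7a11, 1.65 and 2.21 for Gclm, 1.53 and 2.86 for Hmox1 and 1.07 and 2.35 for Txnrd1. The alternative without cells high in ribosomal RNA (Gm42418 and Lars2) kept 3426 of 6796 labelled-heterozygous but only 275 of 8552 wild-type epithelial cells. It thus compared unlike parts of the 2 libraries. Counts also fell to 1 in place of 2 in Krt4-positive cells with the Krt4 limit at 5, and to 2 in place of 3 in Krt12-low cells with the Krt12 limit at 10 or in Xist cells only. In Gpha2-positive cells the count was likewise 2 in place of 3 in Xist cells only. Counts rose to 3 in place of 2 in Krt4-positive cells with the Krt4 limit at 1. They also did so in Krt12-high cells without stress-high cells and in keratocytes poor in Kera. The count in Krt12-high cells, 2, was 1 in Xist cells and 1 in Y-linked cells of the library labelled heterozygous, and without stress-high cells that in Krt12-low cells was 1 in place of 3 and that in vascular cells 0 in place of 1. No gene counted as higher or lower changed direction. Nqo1 and Sod2, which were not called, took both signs, from -0.44 to 0.42 and from -0.53 to 0.06. In Gpha2-gated cells Txnrd1 ranged from -0.22 to 2.17, the highest without stress-high cells, where 24 wild-type cells were left; the cause was not tested. In keratocytes Hmox1 ranged from 2.38 to 4.71 and Srxn1 from 2.05 to 3.11, and Nqo1 took both signs, from -0.59 to 1.01. No paired analysis was possible because there is 1 library per genotype and no test. With 1 library per genotype, differences between mice, dissections and genotypes cannot be told apart, and the 110 wild-type Gpha2-gated cells limit what depth can show in that class.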
